A study of Homo sapiens with 10 samples.

Results

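The genes described here are 10 drivers of the cell cycle in HeyA8, an established line of human ovarian cancer: the D cyclins CCND1 and CCND3, the E cyclins CCNE1 and CCNE2, the cyclin-dependent kinases CDK2, CDK4 and CDK6, and the phosphatases CDC25A, CDC25B and CDC25C. They were selected by symbol, with their changes in these same libraries already known, out of the 58395 genes listed in the count files, and all 10 had enough reads to be tested. Because measured values chose them, their changes are given as a description, with standard errors and without p-values.

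HeyA8 cells had been transfected with 10 nM of an siRNA duplex and harvested after 24 h or 48 h, and RNA depleted of ribosomal RNA was sequenced. siGGGGGC and siGGCAGU carry the name of their guide seed, the bases 2 to 7 through which a guide strand pairs with messenger RNAs in the way of a microRNA. The sample titles call them siMxy and si34a, and the transfection labels of the same samples give the seed names. siNT1, whose label adds S2'OM, was the non-targeting control. The paper lists the same modified bases at the start of the sense strand for siNT1, siGGGGGC and siGGCAGU. The 10 libraries formed 5 groups of 2: siNT1 at 24 h, siGGGGGC at 24 h, siNT1 at 48 h, siGGCAGU at 48 h and siGGGGGC at 48 h. All came from this single line, and the duplicates were wells of culture plates, so their spread is that of wells and libraries. Several plates were used, and which wells shared a plate is not given in the sources used here. The total count per library ranged from 19781445 to 42428986.

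A cell passes from G1 into S phase when D cyclins activate CDK4 and CDK6, and E cyclins activate CDK2. These kinases phosphorylate the retinoblastoma protein RB1 and its relatives, which releases the E2F transcription factors, and E2F in turn switches on genes for S phase, the E cyclins and CDC25A among them. CDC25 phosphatases remove inhibitory phosphates from CDKs, placed there by WEE1 and PKMYT1, and CDK inhibitors such as p21 and p27 hold the kinases back. The miR-34 family, induced by p53, is known for lowering messenger RNAs of several G1 cyclins and CDKs.

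Seeds and seed matches of the 10 genes were read from the reference, since the duplexes differ in these letters. The following mature human microRNAs, given by RefSeq for GRCh38.p14, share bases 2 to 7 with siGGCAGU or siGGGGGC. The reference used may not hold every microRNA, so the list need not be complete. Bases 2 to 8, the seed of a microRNA, are in capitals.
hsa-miR-34a-5p: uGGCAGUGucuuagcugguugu
hsa-miR-449a: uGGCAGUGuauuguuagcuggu
hsa-miR-449b-5p: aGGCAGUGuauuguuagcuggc
hsa-miR-1237-5p: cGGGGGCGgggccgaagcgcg
hsa-miR-4488: aGGGGGCGggcuccggcg
The first of these lies at chr1:9151735-9151756 on the minus strand and hsa-miR-1237-5p at chr11:64368651-64368671 on the plus strand. hsa-miR-34a-5p, hsa-miR-449a and hsa-miR-449b-5p have the same bases 2 to 8, and so do hsa-miR-1237-5p and hsa-miR-4488. hsa-miR-548au-3p shares bases 2 to 7 with siGGCAGU and differs from hsa-miR-34a-5p at base 8. All these microRNAs were matched to the duplexes on bases 2 to 7 alone, and base 8 of the duplexes was not compared.

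A messenger RNA pairs with the siGGCAGU seed through ACTGCC and with the siGGGGGC seed through GCCCCC, searched on the sense strand only. These words were counted in the longest 3′ UTR that GENCODE 44 (hg38) annotates for each gene. ACTGCC stood once in CCND1, CCND3 and CCNE2, 2 times in CDC25A and 3 times in CDK6, and the 3′ UTRs of CCNE1, CDK2, CDK4, CDC25B and CDC25C held 0. GCCCCC stood once in CCND3, CDK2 and CDC25B and 2 times in CDK6, with 0 in the other members. Among 19248 protein-coding genes, 32.7% had at least one ACTGCC in the longest 3′ UTR and 30.2% had a GCCCCC. The windows around most of these matches are printed 5′ to 3′ on the strand of the gene, with the match in capitals.
CCND1, ACTGCC: acaatgtcatatACTGCCatgtactagttt
CCND3, ACTGCC: ctcatgttttcaACTGCCaaaatgctctag
CDC25A, ACTGCC, nearer the stop codon: ttaggttgaaatACTGCCattctaggtagg
CDC25A, ACTGCC, farther from the stop codon: ttctgttggttgACTGCCtaaagagaaagg
CDK6, ACTGCC, first: tttctgccacacACTGCCttgttggcaaag
CDK6, ACTGCC, second: aactacatattgACTGCCaagaactatgac
CDK6, ACTGCC, last: gtgtggaaattcACTGCCtgggacacagtc
CCND3, GCCCCC: ttccttttgaacGCCCCCccccacccctgg
CDK2, GCCCCC: agccttcttgaaGCCCCCagccctaatctc
CDC25B, GCCCCC: ccatatcctggtGCCCCCcacccctggaag
CDK6, GCCCCC, first: ggggccatttcaGCCCCCtgtattctcatg
The matches in capitals are at chr11:69653358-69653363 in CCND1, chr6:41935587-41935592 and chr6:41935622-41935627 in CCND3, chr3:48158424-48158429 and chr3:48157275-48157280 in CDC25A, chr12:55971639-55971644 in CDK2 and chr20:3805151-3805156 in CDC25B. Those of CDK6 are at chr7:92614046-92614051, chr7:92608185-92608190 and chr7:92605953-92605958 for ACTGCC, and at chr7:92611901-92611906 for the GCCCCC shown. A match is a description of letters and not a site shown to be bound.

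**Figure D1:**
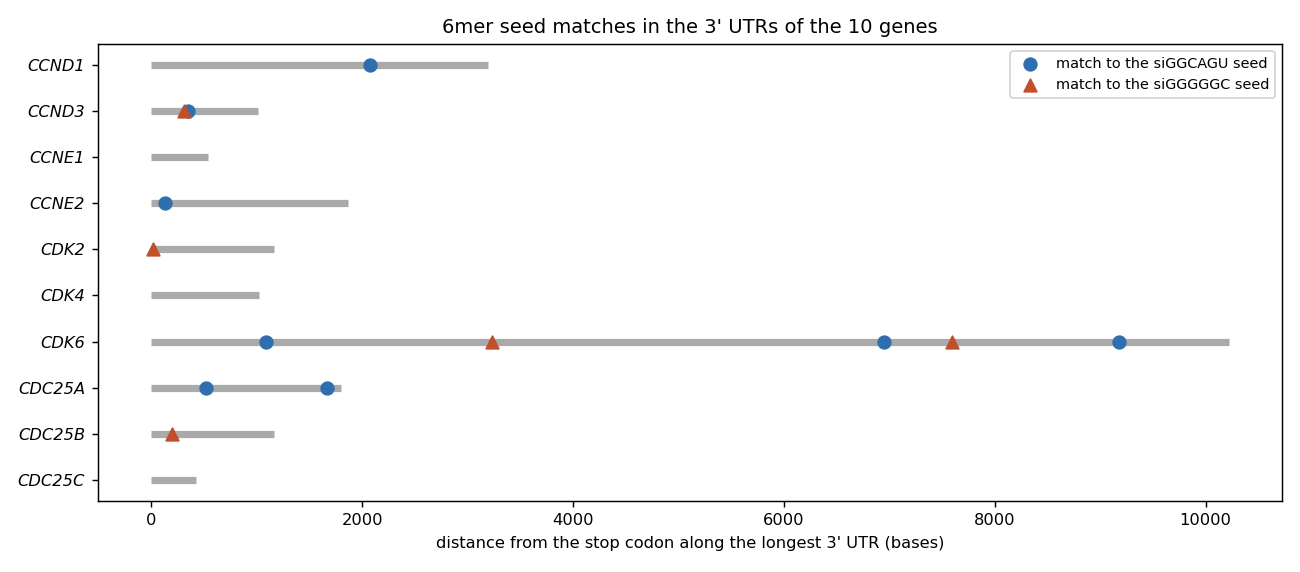
The grey bars are the longest annotated 3′ UTRs of the 10 genes, drawn to scale in bases from the stop codon (x axis), with circles for matches to the siGGCAGU seed and triangles for matches to the siGGGGGC seed. CDK6, with 10219 bases, has the longest bar and carries 3 circles and 2 triangles, whereas CCNE1, CDK4 and CDC25C carry neither.

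To determine how the D cyclins behaved, which bind CDK4 and CDK6, their normalised counts (counts scaled to a common TMM library size) were compared in every library. CCND1 (ENSG00000110092, chromosome 11, 69641156 to 69654474, plus strand) had 7056 and 7392 normalised counts with siNT1 at 24 h, 9285 and 9287 with siGGGGGC at 24 h, 10495 and 9266 with siNT1 at 48 h, 2153 and 2523 with siGGCAGU, and 7873 and 8053 with siGGGGGC at 48 h. Both siGGCAGU libraries were far below all others, and siGGGGGC was above its control at 24 h and below it at 48 h. The log2 fold change against siNT1 was -2.08 ± 0.10 (SE) for siGGCAGU, 0.36 ± 0.096 for siGGGGGC at 24 h and -0.31 ± 0.096 at 48 h. CCND3 (ENSG00000112576, chromosome 6, 41934934 to 42050357, minus strand) had 473 and 498 normalised counts with siNT1 at 24 h, 778 and 804 with siGGGGGC at 24 h, 590 and 570 with siNT1 at 48 h, 358 and 385 with siGGCAGU, and 1214 and 1312 with siGGGGGC at 48 h. The 5 groups did not overlap: siGGCAGU was lowest, and siGGGGGC stood above its control at both times. For CCND3 the log2 fold change against siNT1 was -0.64 ± 0.095 for siGGCAGU, 0.71 ± 0.097 for siGGGGGC at 24 h and 1.12 ± 0.090 at 48 h. CCND1 and CCND3 thus lay on opposite sides of their control with siGGGGGC at 48 h and on the same side with siGGCAGU.

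The E cyclins bind CDK2 late in G1. CCNE1 (ENSG00000105173, chromosome 19, 29811991 to 29824312, plus strand) had 172 and 178 normalised counts with siNT1 at 24 h, 269 and 246 with siGGGGGC at 24 h, 185 and 229 with siNT1 at 48 h, 123 and 106 with siGGCAGU, and 332 and 315 with siGGGGGC at 48 h. CCNE2 (ENSG00000175305, chromosome 8, 94879770 to 94896678, minus strand) had 563 and 636 with siNT1 at 24 h, 1283 and 1443 with siGGGGGC at 24 h, 686 and 830 with siNT1 at 48 h, 267 and 244 with siGGCAGU, and 1630 and 1548 with siGGGGGC at 48 h. In both genes the groups had the order of CCND3, from siGGCAGU through siNT1 at 24 h, siNT1 at 48 h and siGGGGGC at 24 h to siGGGGGC at 48 h, with no overlap between neighbours. The log2 fold change of CCNE1 against siNT1 was -0.88 ± 0.14 for siGGCAGU, 0.56 ± 0.15 for siGGGGGC at 24 h and 0.64 ± 0.13 at 48 h. The log2 fold change of CCNE2 was -1.58 ± 0.12 for siGGCAGU, 1.19 ± 0.11 for siGGGGGC at 24 h and 1.07 ± 0.11 at 48 h. With siGGGGGC, CCNE2 was thus 2.27 times its control at 24 h and 2.09 times at 48 h. Without replicate 1 of siNT1 at 48 h the 48 h log2 value of CCNE2 was 0.93.

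CDK2 is the partner of the E cyclins, and CDK4 and CDK6 are those of the D cyclins. CDK2 (ENSG00000123374, chromosome 12, 55966781 to 55972789, plus strand) had 1375 and 1456 normalised counts with siNT1 at 24 h, 1480 and 1494 with siGGGGGC at 24 h, 1317 and 1514 with siNT1 at 48 h, 608 and 660 with siGGCAGU, and 779 and 776 with siGGGGGC at 48 h. Its log2 fold change against siNT1 was -1.16 ± 0.094 for siGGCAGU, 0.071 ± 0.092 for siGGGGGC at 24 h and -0.87 ± 0.093 at 48 h, and the 24 h value became -0.022 when libraries were scaled by total counts. At 24 h siGGGGGC thus sat at the control level of CDK2, and at 48 h both siRNAs were below every siNT1 library.

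CDK4 (ENSG00000135446, chromosome 12, 57747727 to 57756013, minus strand) had 1794 and 1963 normalised counts with siNT1 at 24 h, 2154 and 2548 with siGGGGGC at 24 h, 1870 and 1555 with siNT1 at 48 h, 337 and 311 with siGGCAGU, and 1341 and 1331 with siGGGGGC at 48 h. The siGGCAGU level was 0.189 times that of siNT1 at 48 h, a log2 fold change of -2.41 ± 0.12, while the siGGGGGC values were 0.32 ± 0.11 at 24 h and -0.36 ± 0.11 at 48 h. The 2 siNT1 groups overlapped each other. Of the exon bases of CDK4, 44.2% lie under exons of TSPAN31 on the other strand, and the strand setting of the counting was not given in the sources used here, so reads of this pair may not have been told apart. TSPAN31 had 210 and 247 normalised counts with siNT1 at 48 h and 736 and 669 with siGGCAGU, and its part in the CDK4 values was not tested.

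CDK6 (ENSG00000105810, chromosome 7, 92604921 to 92836573, minus strand) had 4165 and 4132 normalised counts with siNT1 at 24 h, 3133 and 3373 with siGGGGGC at 24 h, 5999 and 5101 with siNT1 at 48 h, 2555 and 2818 with siGGCAGU, and 5127 and 4892 with siGGGGGC at 48 h. Its log2 fold change against siNT1 was -1.05 ± 0.096 for siGGCAGU, -0.35 ± 0.096 for siGGGGGC at 24 h and -0.15 ± 0.095 at 48 h. The siGGGGGC and siNT1 libraries overlapped at 48 h, and the 95% confidence interval of that difference ran from -0.39 to 0.10. That interval used the 5 residual degrees of freedom alone, so it is wider than the edgeR test implies. Leaving out replicate 1 of siNT1 at 48 h gave a siGGCAGU value of -0.93, and leaving out replicate 1 of siGGCAGU gave -0.98. CDK6 and CDC25B were the members whose level with siGGGGGC at 24 h lay below that of siNT1.

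The CDC25 phosphatases had the widest range. CDC25A acts at the G1 to S transition, and CDC25B and CDC25C are best known for activating CDK1 at entry into mitosis. CDC25A (ENSG00000164045, chromosome 3, 48157146 to 48188417, minus strand) had 1780 and 1991 normalised counts with siNT1 at 24 h, 2701 and 2896 with siGGGGGC at 24 h, 1678 and 1760 with siNT1 at 48 h, 177 and 138 with siGGCAGU, and 2119 and 2052 with siGGGGGC at 48 h. In the siGGCAGU libraries it was at 0.0900 times its control, the lowest ratio among the 10 genes. Its log2 fold change was -3.47 ± 0.12 for siGGCAGU, 0.57 ± 0.099 for siGGGGGC at 24 h and 0.28 ± 0.097 at 48 h.

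CDC25B (ENSG00000101224, chromosome 20, 3786772 to 3806121, plus strand) had 481 and 474 normalised counts with siNT1 at 24 h, 465 and 428 with siGGGGGC at 24 h, 570 and 473 with siNT1 at 48 h, 239 and 228 with siGGCAGU, and 129 and 148 with siGGGGGC at 48 h. It was the member in which siGGGGGC at 48 h, and not siGGCAGU, had the lowest libraries. Its log2 fold change against siNT1 was -1.16 ± 0.12 for siGGCAGU, -0.10 ± 0.12 for siGGGGGC at 24 h and -1.91 ± 0.13 at 48 h. CDC25C (ENSG00000158402, chromosome 5, 138285269 to 138338355, minus strand) had 456 and 524 with siNT1 at 24 h, 872 and 915 with siGGGGGC at 24 h, 405 and 431 with siNT1 at 48 h, 191 and 165 with siGGCAGU, and 624 and 664 with siGGGGGC at 48 h. No groups overlapped, and its order of groups was that of CDC25A. The log2 fold change of CDC25C was -1.25 ± 0.12 for siGGCAGU, 0.87 ± 0.11 for siGGGGGC at 24 h and 0.62 ± 0.11 at 48 h.

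**Figure D2:**
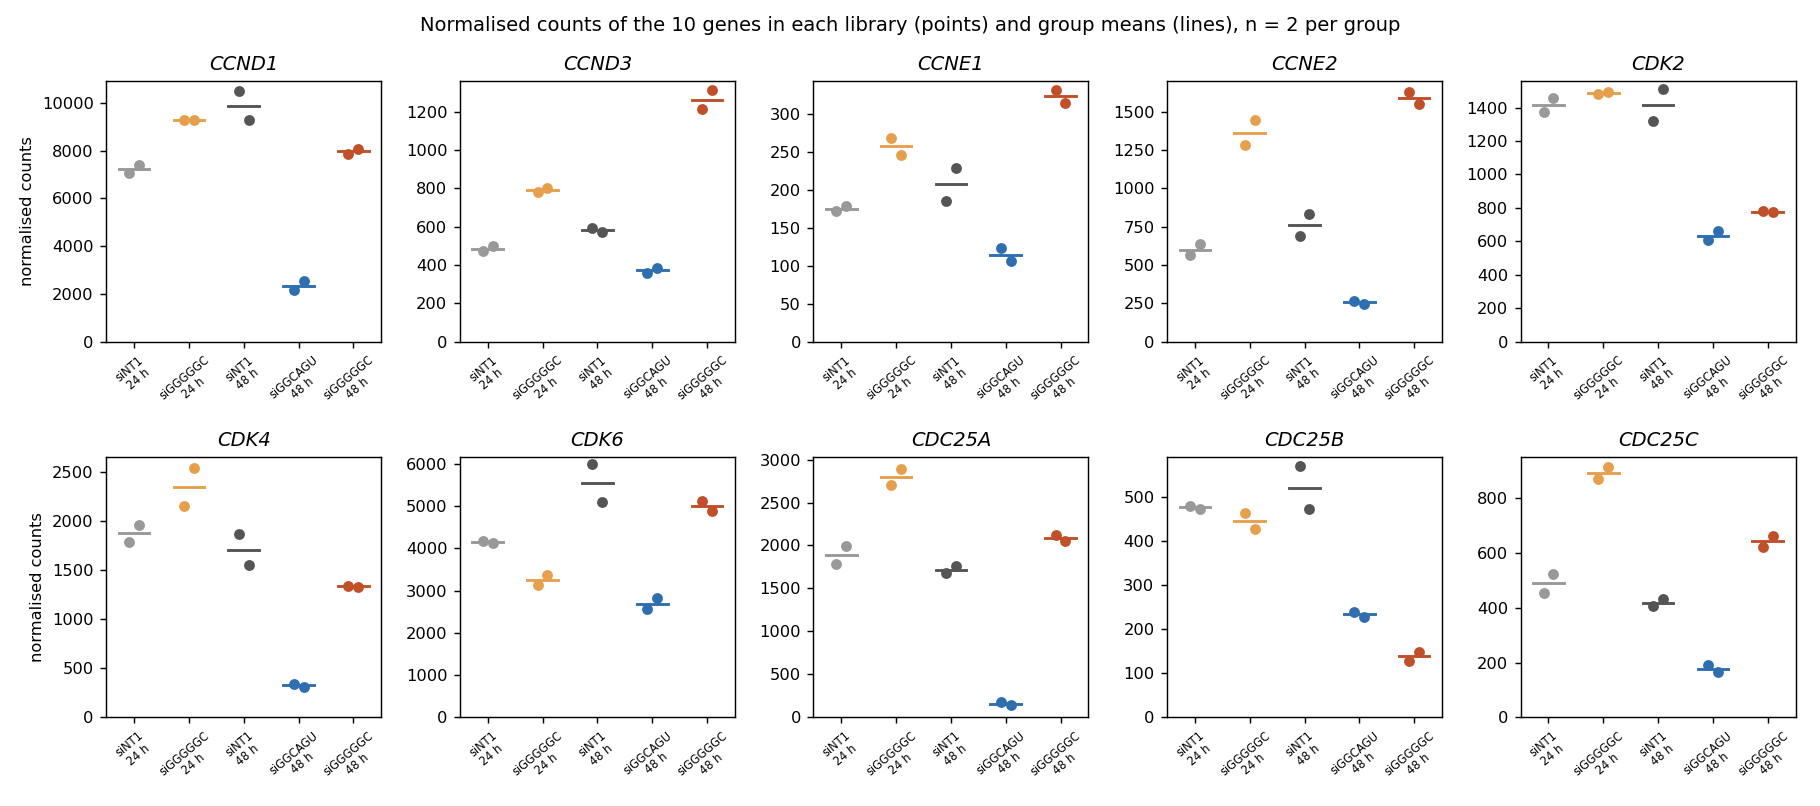
Each panel gives the normalised counts of a gene (y axis, from 0) in the 10 libraries, as points by group with a line at the mean of n = 2. The siGGCAGU points are the lowest in each panel except that of CDC25B, where siGGGGGC at 48 h has 129 and 148.

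Exons of other members also lie under genes of the opposite strand. INTS8 covers 37% of the exon bases of CCNE2, the long non-coding gene ENSG00000258554 14.5% and PMEL 2.29% of CDK2, LTO1 10.4% of CCND1 and FAM53C 8.8% of CDC25C. INTS8 had 1108 and 1176 normalised counts with siNT1 at 48 h and 2270 and 1903 with siGGCAGU, the direction opposite to that of CCNE2, and its part in the CCNE2 values was not tested.

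Levels of different genes were set side by side as normalised counts per kb of exon. With siNT1 at 48 h CCND1 was highest, at 2204 and 1946 per kb, and CCNE1 lowest, at 75.2 and 93.1. CDK4 followed CCND1 with 604 and 503 per kb, ahead of CDK6 with 490 and 417, CDC25A with 405 and 425, and CDK2 with 339 and 389. The ranges of CDK6 and CDC25A overlapped. CCNE2 had 156 and 189 per kb, CDC25B 146 and 121, CDC25C 122 and 130, and CCND3 102 and 98.9, and CDC25B and CDC25C could not be ordered.

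The makeup of each family, as shares of its counts per kb, moved with the siRNA. CDC25A made up 60.2% and 62.9% of the CDC25 total with siNT1 at 48 h, 26.4% and 23.6% with siGGCAGU, and 69.9% and 67.6% with siGGGGGC at 48 h. The CDC25B share was 21.7% and 17.9% with siNT1 at 48 h, 38.0% and 41.4% with siGGCAGU, and 4.50% and 5.18% with siGGGGGC at 48 h. CDC25B was thus the largest of the 3 shares in the siGGCAGU libraries and the smallest with siGGGGGC, and in siNT1 at 48 h it was above CDC25C in replicate 1 and below it in replicate 2.

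CDK4 took 55.2% and 54.7% of the CDK4 and CDK6 total with siNT1 at 48 h, 34.3% and 30.4% with siGGCAGU, and 50.9% and 51.8% with siGGGGGC at 48 h. At 24 h the CDK4 share was 63.0% and 65.3% with siNT1 and 73.1% and 74.9% with siGGGGGC. CDK6 was therefore the larger of the pair only in the siGGCAGU libraries. CCND1 took 95.6% and 95.2% of the CCND1 and CCND3 total with siNT1 at 48 h, 87.9% and 88.8% with siGGCAGU, and 88.7% and 88.1% with siGGGGGC at 48 h. The CCND1 share was thus lower with either siRNA. With siGGCAGU both D cyclins were below siNT1, and with siGGGGGC CCND1 was below and CCND3 above it. CCNE2 took 67.5% and 67.0% of the E cyclin total with siNT1 at 48 h, 54.8% and 56.4% with siGGCAGU, and 73.3% and 73.4% with siGGGGGC at 48 h. It remained the larger E cyclin in all 10 libraries.

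**Figure D3:**
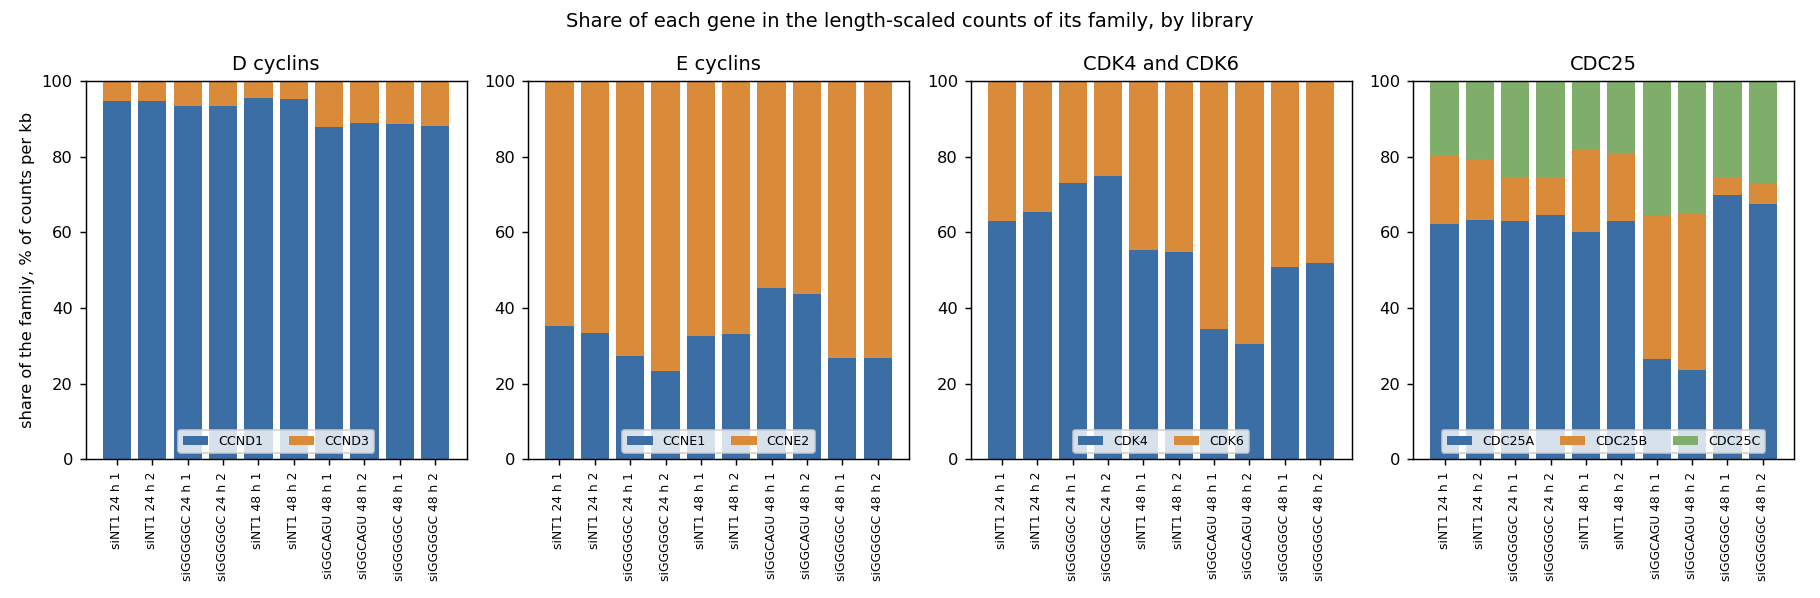
Stacked bars give, for each of the 10 libraries (x axis), the percentage of a family's normalised counts per kb that belonged to each gene (y axis, 0 to 100%). CDC25A falls from 60.2% and 62.9% in the siNT1 libraries at 48 h to 26.4% and 23.6% in the siGGCAGU libraries.

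The comparisons were then set against all genes. A call needed an adjusted p under 0.05 in edgeR together with a log2 fold change larger than 1 in size, and a gene was past the threshold when the adjusted p alone was below 0.05. In siGGCAGU against siNT1 at 48 h, 8 of the 10 genes were called lower and 0 higher, where 9.62% of the 16905 genes tested were called lower and 10.7% higher. CCND3 and CCNE1 were not called, and CCNE1 came to -1.03 without replicate 1 of siNT1 at 48 h. All 10 were past the threshold and lower, where 24.9% of all genes were lower and 27.8% higher by that rule. The median log2 fold change was -1.20 over the members and 0.024 over all genes. These counts, and the counts of members in all comparisons below, carry the choice of the genes, so nothing was read from them.

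In siGGGGGC against siNT1 at 24 h, CCNE2 was called higher and 0 members lower, where 1.55% of all genes were called higher and 2.17% lower. By adjusted p alone 7 members were higher and 1, CDK6, lower, against 10.6% and 8.32% of all genes, and leaving out either siNT1 library of 24 h put CCND1, CCNE1, CDK4 and CDK6 over 0.05. CCND1 and CDK6 were also over 0.05 without either siGGGGGC library of 24 h, CCNE1 without replicate 1 of them, and CDK4 without replicate 2 or either siGGGGGC library of 48 h. With total counts CCND1, CDK4 and CDK6 were over 0.05, and with DESeq2 CDK4 was. In a fit of the 24 h libraries alone, CCND1, CCNE1, CDK4 and CDK6 stayed under 0.05. The median was 0.46 over the members and 0.0035 over all genes. In siGGGGGC against siNT1 at 48 h, CCND3 and CCNE2 were called higher and CDC25B lower, where 10.5% of all genes were called higher and 11.0% lower. By adjusted p alone 5 members were higher and 4 lower, against 27.8% and 27.5% of all genes, and CCND1, CDK4 and CDC25A fell short when replicate 1 of siNT1 or either siGGGGGC library was left out, while CDK6, at -0.27, was past it without replicate 2 of siNT1. The median was 0.066 over the members and -0.011 over all genes. Both siRNAs shared their siNT1 libraries at 48 h.

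The direct comparison of siGGGGGC with siGGCAGU at 48 h, both at 10 nM, had CCND1, CCND3, CCNE1, CCNE2, CDK4, CDC25A and CDC25C called higher with siGGGGGC and 0 members lower, where 10.1% of all genes were called higher and 12.8% lower. By adjusted p alone 9 members were higher and CDC25B lower, against 26.7% and 27.6% of all genes. CDC25A differed most, at 3.75 ± 0.12 on the log2 scale or 13.5 times, followed by CCNE2 at 2.64 ± 0.12 and CDK4 at 2.05 ± 0.12. CDK2, at 0.29 ± 0.096, and CDC25B, at -0.75 ± 0.14, differed least, and CDK2 was over 0.05 without replicate 1 of siGGCAGU or either siGGGGGC library. The labels give the duplexes different seeds.

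**Figure D4:**
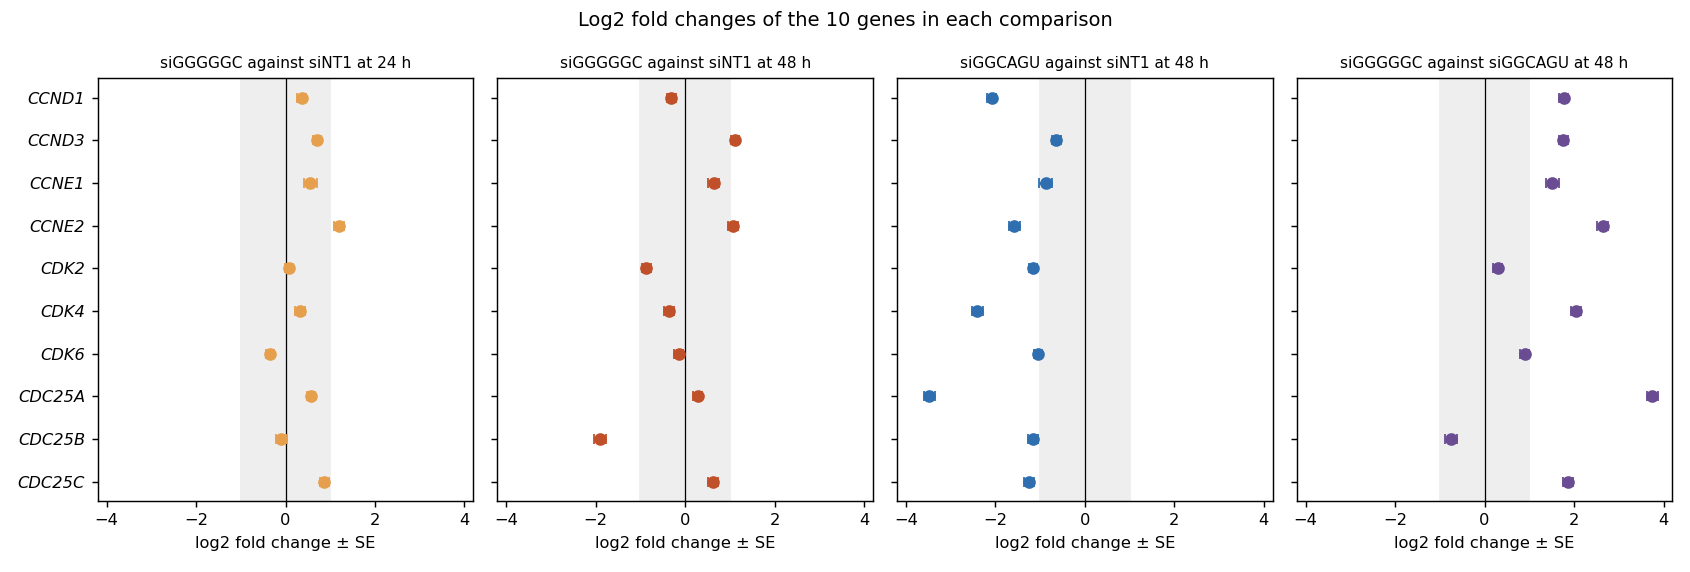
The log2 fold changes of the 10 genes (x axis, points with bars of 1 SE) are drawn for the comparisons of siRNAs, with grey between -1 and 1. With siGGCAGU all points are on the negative side, from -3.47 for CDC25A to -0.64 for CCND3, and with siGGGGGC at 48 h they run from -1.91 for CDC25B to 1.12 for CCND3.

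The effect of siGGGGGC at 48 h was compared with that at 24 h through the difference of their log2 fold changes. CDC25B was called lower at 48 h, with a difference of -1.81 ± 0.18, and 0 members were called higher, where 6.36% of all genes were called lower and 4.83% higher. By adjusted p alone 5 members were past the threshold, against 28.6% of all genes: CDK2 at -0.94 ± 0.13, CDK4 at -0.68 ± 0.15 and CCND1 at -0.67 ± 0.14 besides CDC25B, and CCND3 at 0.42 ± 0.13. CDK2 came to -1.05 without replicate 1 of siNT1 at 48 h, and CCND3 was over 0.05 when 1 of 7 different libraries was left out. In the siNT1 cells alone, 48 h against 24 h, 0 members were called and 3 were past the threshold by adjusted p, where 1.53% of all genes were called and 16.6% past it in either direction. Those 3 were CCND1 at 0.45 ± 0.096, CDK6 at 0.42 ± 0.095 and CCNE2 at 0.34 ± 0.11, and leaving out either siNT1 library of 24 h put each of them over 0.05, as did replicate 1 of siNT1 at 48 h for CCND1 and CDK6 and replicate 2 or any siGGGGGC library for CCNE2. Scaling by total counts moved the median of all genes by -0.16 with siGGGGGC at 48 h, -0.15 with siGGCAGU and 0.24 with time in siNT1 cells. Of the genes called, 41.7% were higher with siGGGGGC at 24 h, 48.6% at 48 h, 52.6% with siGGCAGU and 69.8% with time in siNT1 cells, and with total counts these shares were 28.7%, 35.1%, 40.1% and 95.3%.

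The seed matches printed above were set beside these changes. The 5 members with ACTGCC in the 3′ UTR had siGGCAGU log2 fold changes from -3.47 to -0.64 with a median of -1.58, and 4 of them were called lower. The 5 members without it ranged from -2.41 to -0.88 with a median of -1.16, and 4 of these were called lower too. CDK4, with 0 matches, was at -2.41, and CDK6, with 3 matches, was at -1.05. Ahead of the stop codon of the canonical transcript, ACTGCC stood 3 times in CCNE1, 2 times in CDC25C, once in CCND1, CCND3 and CDK2, and not in the others, where 41.8% of genes had it. There GCCCCC stood 3 times in CDC25A and CDC25B, 2 times in CDK2, once in CCND3, CDK4, CDK6 and CDC25C, and not in the others, where 48.3% of genes had it. Of the members with GCCCCC in the 3′ UTR, CDC25B was at -1.91, CDK2 at -0.87, CDK6 at -0.15 and CCND3 at 1.12 with siGGGGGC at 48 h, a median of -0.51. The 6 members without it ranged from -0.36 to 1.07, with a median of 0.45. With siGGGGGC at 24 h the members with GCCCCC ranged from -0.35 to 0.71, with a median of -0.013. CDC25B was then at -0.10 and CDK2 at 0.071. Members without GCCCCC ranged from 0.32 to 1.19 at 24 h, with a median of 0.56. Both sets are too small and too chosen for a test.

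Promoters were searched for E2F motifs, since the E cyclins and CDC25A are known E2F targets. The words TTTCCCGC, TTTCGCGC, TTTGCCGC and TTTGGCGC were searched on both strands from 250 bases before to 50 after the start of a gene, in RefSeq promoters of GRCh38.p14. Of 7 members with a promoter entry, CDC25A had such a word, and 3.31% of 35116 promoters had at least one. It lies at chr3:48188454-48188461, 44 bases before the start, and is in capitals.
CDC25A promoter: gtggattccgTTTGGCGCcaactaggaaag

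Across the 10 libraries, which fall into the 5 groups, the genes with the most similar profile to each member were sought among 9979 genes with a mean of at least 100 normalised counts. CCNE1 was closest to its paralog CCNE2, with a Pearson r of 0.982. CCND1 was closest to DHX37 (r of 0.995), CDK4 to MCM5 (0.995), a subunit of the replicative helicase, and to GMNN (0.994), an inhibitor of licensing. TTL followed for CDK4, at 0.994. CDC25A was closest to FAM111B (0.996) and CDK2 to SPATA5 (0.995), followed by DHODH (0.990) and the mitotic kinase AURKB (0.990). CCND3 was closest to FUT11 (0.993), CCNE2 to PGF (0.988), CDK6 to MAP4K5 (0.980), CDC25B to RNF34 (0.991) and CDC25C to OBI1 (0.992). Among the members themselves r was 0.974 between CDK4 and CDC25A and -0.447 between CCND3 and CDC25B.

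The other regulators of the same machinery were taken from a list of 35 genes, of which 33 had enough counts. This list too was drawn up with earlier results of these data known, so its p-values, adjusted over all genes tested, are no independent support. In siGGCAGU against siNT1 at 48 h, 10 of these 33 were called lower and 1 higher, where the shares of all genes were 9.62% and 10.7%. Both of the A cyclins and both of the B cyclins fell, and so did CDK1, their kinase, CKS1B and CKS2, small adaptors of CDKs, the CDK1-inhibiting kinase PKMYT1, the CDK4 and CDK6 inhibitor CDKN2C and the RB1 relative RBL1. CCNA2 had 2987 and 3280 normalised counts with siNT1 and 626 and 540 with siGGCAGU. Its log2 fold change was -2.43 ± 0.10 with an adjusted p of 6.44e-11 in edgeR. CDK1 had 4338 and 5020 with siNT1 and 1848 and 1389 with siGGCAGU, a change of -1.54 ± 0.12 (adjusted p of 3.67e-08, edgeR), and RBL1 changed by -1.57 ± 0.096 (adjusted p of 3.09e-09, edgeR). The inhibitor CDKN1C rose by 1.93 ± 0.29 (adjusted p of 4.57e-05, edgeR) from a low level of 19.4 and 10.9 to 57.5 and 55.0. CKS2 came to -0.89 without replicate 2 of siNT1 and to -0.98 without replicate 2 of siGGCAGU, and CDKN2C to -0.97 without that siGGCAGU library. By adjusted p alone 19 of the 33 were lower and 7 higher, where 24.9% of all genes were lower and 27.8% higher, and the median log2 fold change was -0.34 over the list and 0.024 over all genes.

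With siGGGGGC, 1 of these genes was called higher and 1 lower at 24 h, and 2 higher and 2 lower at 48 h. The shares of all genes were 1.55% and 2.17% at 24 h and 10.5% and 11.0% at 48 h, so the list as a whole was not above that background at 48 h. At 24 h CCNA1, an A cyclin best known from germ cells, rose from 84.7 and 86.4 normalised counts to 241 and 243, a log2 fold change of 1.50 ± 0.16 (adjusted p of 1.92e-05, edgeR). CCND2, the remaining D cyclin, fell by 2.73 ± 0.70 (adjusted p of 0.0108, edgeR), from raw counts of 12 and 12 to 1 and 2. The ratio of its summed counts, scaled to depth, was 0.144 with a 95% exact binomial interval from 0.0277 to 0.474, which covers counting error only. Leaving out replicate 2 of siNT1 or either siGGGGGC library brought its adjusted p in edgeR to 0.0559, 0.108 and 0.0566. At 48 h CCNA1 and CDKN1C rose, CCND2 and CCNB1 fell, and CCNB1, a mitotic cyclin, went from 8993 and 10031 normalised counts to 4613 and 4718, a change of -1.03 ± 0.092 (adjusted p of 2.07e-07, edgeR). CCNB1 came to -0.95 without replicate 2 of siNT1. By adjusted p alone 9 were higher and 3 lower at 24 h, where 10.6% and 8.32% of all genes were, and 10 higher and 12 lower at 48 h, close to the 27.8% and 27.5% of all genes. Between the siRNAs at 48 h, 9 of the 33 were called higher in the siGGGGGC libraries and 1, CCND2, lower, where 10.1% and 12.8% of all genes were. Those higher were CCNA1, CCNA2, CCNB2, CDK1, CDKN2C, CDKN1A, PKMYT1, CKS1B and BTRC, a ubiquitin ligase subunit that acts on CDC25A and WEE1. BTRC was at 1.55 ± 0.12 (adjusted p of 3.19e-08, edgeR), CCNA2 at 1.75 ± 0.10 and CDK1 at 1.42 ± 0.12.

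CDK inhibitors were read as a group of 7, of which CDKN2A and CDKN2B had 0 counts in every library, which allows up to 3 counts in each. CDKN1A, which encodes p21, had 5554 and 6058 normalised counts with siNT1 at 24 h, 4580 and 4514 with siGGGGGC at 24 h, 7204 and 7421 with siNT1 at 48 h, 6508 and 5611 with siGGCAGU, and 11637 and 12996 with siGGGGGC at 48 h. It was below its control at 24 h and above it at 48 h with siGGGGGC, with log2 fold changes of -0.35 ± 0.097 and 0.75 ± 0.096 (adjusted p of 0.0188 and 8.35e-06, edgeR). CDKN1B, which encodes p27, had 765 and 780 with siNT1 and 1487 and 1420 with siGGGGGC at 24 h, and 777 and 758 with siNT1, 966 and 1024 with siGGCAGU and 1373 and 1449 with siGGGGGC at 48 h. All its siRNA libraries were above both siNT1 groups, by 0.91 ± 0.087, 0.38 ± 0.085 and 0.88 ± 0.084 on the log2 scale in that order of groups (adjusted p of 4.92e-06, 0.00152 and 4.25e-07, edgeR).

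None of the CDK-activating kinase subunits (CDK7, CCNH and MNAT1) and none of the checkpoint kinases ATM, ATR, CHEK1 and CHEK2 was called in any comparison. CHEK2 with siGGCAGU, at -0.99 ± 0.12, lay at the edge of the fold limit (adjusted p of 3.97e-06, edgeR). WEE1, the kinase that opposes CDC25, was at 0.95 ± 0.11 with siGGGGGC at 24 h (adjusted p of 1.93e-05, edgeR) and at -0.68 ± 0.10 with siGGCAGU (adjusted p of 5.17e-05, edgeR). At 48 h WEE1 with siGGGGGC was at 0.24 ± 0.10 (adjusted p of 0.0563, edgeR). RB1 itself was at 0.51 ± 0.086 with siGGGGGC at 48 h (adjusted p of 0.000143, edgeR) and at -0.25 ± 0.087 with siGGCAGU (adjusted p of 0.0270, edgeR). Its relatives RBL1 and RBL2 were at -0.62 ± 0.091 and -0.41 ± 0.13 with siGGGGGC at 48 h. With siGGCAGU they were at -1.57 ± 0.096 and 0.067 ± 0.12. FBXW7, the ubiquitin ligase subunit that recognises cyclin E, had 771 and 788 normalised counts with siNT1 and 1532 and 1498 with siGGGGGC at 48 h, a change of 0.96 ± 0.082 (adjusted p of 1.34e-07, edgeR). Of the other genes of turnover and CDK adaptors, SKP1, RBX1 and BTRC were also past the threshold and higher there. SKP2, CUL1 and AMBRA1 were past it and lower.

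**Figure D5:**
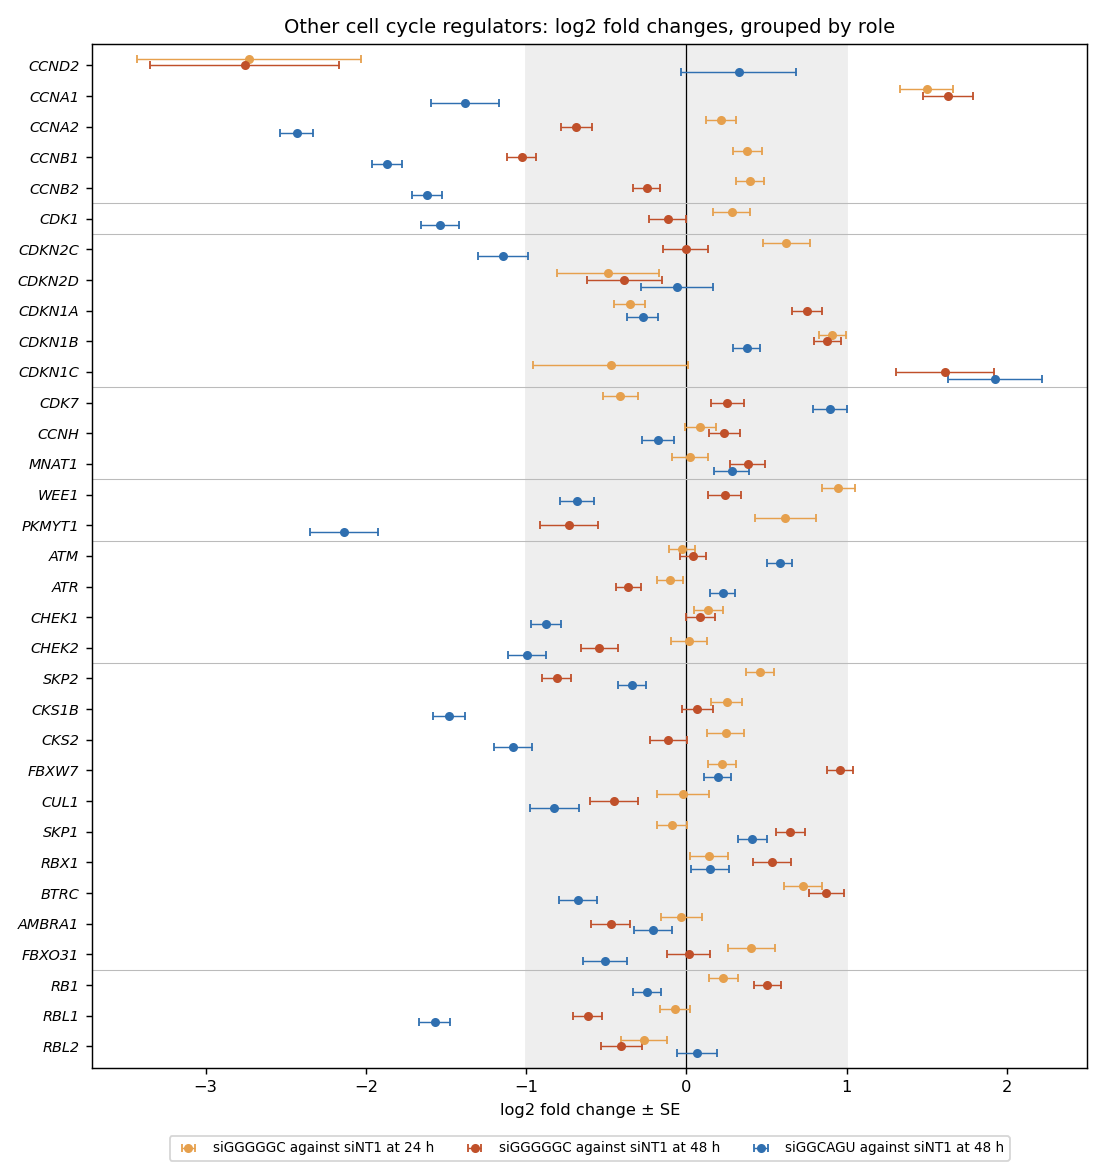
Log2 fold changes against siNT1 (x axis, points with bars of 1 SE, grey between -1 and 1) are drawn for the 33 other regulators in blocks by role, with a colour per comparison. The siGGCAGU points of CCNA2, CCNB1, CCNB2, CDK1 and RBL1 lie at -1.54 or lower, and those of the checkpoint kinases stay within the grey band.

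The identity of the cells was read from 7 epithelial and ovarian carcinoma markers, the mesenchymal marker VIM and 3 markers of other cells. KRT8, KRT18 and VIM had at least 1986 normalised counts in all libraries and were lowest with siGGGGGC at 48 h: KRT8 had 6582 and 5679 with siNT1 and 1986 and 2443 with siGGGGGC, and VIM 37296 and 39331 against 20925 and 20409. WT1 had 107 and 109 with siNT1 at 48 h, 40.5 and 44.6 with siGGCAGU and 52.5 and 36.2 with siGGGGGC. KRT19 and EPCAM were at or below 45.3 normalised counts, MUC16 was at 0 in 4 libraries, and PTPRC, PECAM1 and ALB did not exceed 19.1. PAX8 was lowest with siGGGGGC at 48 h too, and the part of these shifts in the changes of the 10 genes was not tested. The small RNA genes RN7SL2 and SNORD3A took 19.8% to 32.0% of a library, and the share differed between the siGGCAGU duplicates, at 32.0% and 24.2%. Bulk values do not tell fewer expressing cells from less RNA per cell.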

How the data were processed

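The authors trimmed paired-end reads (Trimmomatic), aligned them to hg38 (TopHat or STAR) and counted exonic reads per Ensembl gene with HTSeq. The deposited files hold raw counts, which the authors had not normalised. Of the aligners, the sample labels name TopHat, with Bowtie2. The strand and multi-mapping settings are not given in the sources used here. The labels also name DESeq2, and 4 deposited comparison tables hold fold changes and p-values and were not used. Entries that name no gene numbered 0.

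Groups came from the titles, read with each sample's transfection label. Counts were tested with the edgeR (4.0.16, R 4.3.3) quasi-likelihood F test, with TMM scaling, filterByExpr (16905 of 58395 genes kept), and 1 fit of 10 libraries (residual degrees of freedom: 5). Benjamini-Hochberg adjustment ran over all genes tested. SE is the size of the log2 fold change before shrinkage over the root of F. The fold changes printed are those of edgeR after its slight shrinkage, which matters most at low counts. The test recovered known changes on counts simulated with the spread fitted in these libraries. Those changes were all well beyond the fold limit and in well-expressed genes. Values near the limit and genes of low counts were thus not checked by it. The simulated spread of a gene was the same in all groups, so unequal spread was not checked either. With 2 libraries against 2, no exact permutation test can reach 0.05, and none was run. All members and, per role, the other regulators called could be named, and listed regulators named without a call were picked after their values were seen, and for each member up to 3 genes of like profile. Members and lists were chosen with earlier results of these data known. Alternatives were other scalings, filters, DESeq2 (1.42.0), fewer libraries and a replicate block. Annotation was GENCODE 44.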

Additional observations from a re-analysis of the deposited data

Results flagged for a closer look

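Among the 10 genes and the 33 regulators, 6 differed between 24 h and 48 h in the siGGGGGC effect by the interaction term with a difference larger than 1, where 6.36% of all genes were called lower and 4.83% higher. On adjusted p alone, 5 of the 10 genes and 14 of the 33 regulators passed, where 28.6% of all genes did. CDC25B, a member and so given without a test, had a log2 fold change against siNT1 of -0.10 at 24 h and -1.91 at 48 h, a difference of -1.81 ± 0.18 (SE). CCNB1 was at 0.38 and -1.03, a difference of -1.41 ± 0.13 (adjusted p of 2.00e-06, edgeR). SKP2, which recognises p27 for degradation, was at 0.46 and -0.81, a difference of -1.27 ± 0.13 (adjusted p of 4.69e-06, edgeR). PKMYT1 was at 0.62 and -0.73, a difference of -1.35 ± 0.26 (adjusted p of 0.00138, edgeR). CDKN1A was at -0.35 and 0.75, a difference of 1.10 ± 0.14 (adjusted p of 3.15e-05, edgeR), and the difference was 0.97 without a filter on low counts. CDKN1C was at -0.47 and 1.61, a difference of 2.09 ± 0.57 (adjusted p of 0.0119, edgeR), and its adjusted p was 0.0934 without replicate 2 of siNT1 at 24 h and 0.0598 without replicate 1 of siGGGGGC at 24 h.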

How the results depend on the processing

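Among alternatives that left out 1 library, 746 values kept their direction and side of the threshold, 53 lost the threshold and 1 passed it, and among other settings 615 kept both, 16 lost it, 1 passed it and 1 reversed. The reversed value was CDK2 with siGGGGGC at 24 h, at -0.022 with total counts. A mean count of at least 50 tested fewer genes and called 393 with siGGGGGC at 24 h (629 in the report), 2061 at 48 h (3636), 2013 with siGGCAGU (3430) and 2288 between the siRNAs (3881). In siNT1 at 48 h against 24 h, 258 genes were called, 473 with total counts, 414 without a filter, 147 at a mean count of at least 50, 153 with DESeq2, and between 111 and 416 with 1 library left out. Members called in the difference of the siGGGGGC effects numbered 1, 2 without a filter and 1 to 2 with 1 library left out; the cause was not tested. Near the fold limit, total counts put CCNE2 at 0.91 and CCND3 at 0.96 with siGGGGGC at 48 h, CDK2 at -1.02 there, and CCNE1 at -1.02 with siGGCAGU. CCNE2 with siGGGGGC at 48 h was at 0.94 without a filter. CDKN1A between the siRNAs came to 0.91 without replicate 2 of siGGCAGU and 0.95 without replicate 2 of siGGGGGC, and CDKN2C to 0.96 without replicate 2 of siGGCAGU. On adjusted p, CDC25A with siGGGGGC at 48 h and CDK2 between the siRNAs fell short with total counts or without a filter, CCND3 in the difference of effects with either of these or DESeq2, and CCNE2 with time in siNT1 cells with DESeq2, without RN7SL2 and SNORD3A or with its own libraries alone, while CDK6 with siGGGGGC at 48 h passed without a filter. CCND2, at 1 to 29 raw counts, was the gene most limited by depth.

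Replicate numbers in the labels mark no shared batch, and differences between replicates 1 and 2 correlated from -0.089 to 0.027 between groups. With a replicate block CDK4 with siGGGGGC at 24 h and CCNE2 with time in siNT1 cells no longer passed by adjusted p, and 593 genes were called with siGGGGGC at 24 h, 3601 at 48 h, 3399 with siGGCAGU, 3849 between the siRNAs, 1836 in the difference of effects and 233 with time in siNT1 cells.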
